A study of Mus musculus with 12 samples.

Results

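The phagocyte NADPH oxidase was followed through 5 of its subunits in bone marrow-derived macrophages (BMDMs): Cybb (gp91phox, also called NOX2), Cyba (p22phox), Ncf1 (p47phox), Ncf4 (p40phox) and Rac2. They were taken by gene symbol from a table of 43131 genes, each represented by its transcript with the highest total read count, and all 5 passed the filter on low counts. The oxidase moves electrons from cytosolic NADPH across the membrane onto oxygen and so makes superoxide, with which macrophages and neutrophils attack ingested microbes. Cybb and Cyba form the membrane-bound cytochrome b558, in which Cybb holds the catalytic site and Cyba stabilizes it and anchors the cytosolic parts. On activation the organizer Ncf1 and the regulator Ncf4 move to the membrane together with a GTP-loaded Rac protein such as Rac2. Inherited loss of subunits causes chronic granulomatous disease.

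The BMDMs came from C57BL/6 mice that carried a floxed tlr4 gene (tlr4f/f) or the same floxed gene with a Cre recombinase under the lysM (Lyz2) promoter (tlr4f/f-lysM-cre), which removes tlr4 from cells of the myeloid lineage. Bone marrow cells of both genotypes were grown with 50 ng/mL of M-CSF for 7 days and were then left unstimulated (LPS-) or stimulated with 1 µg/mL of lipopolysaccharide (LPS+), the bacterial ligand of TLR4, for 6 hours. Each of the 4 groups has 3 libraries. Group A has the column heading LPS- tlr4f/f. Group B has the heading LPS- tlr4f/f-lysM-cre. Group C is headed LPS+ tlr4f/f. Group D carries LPS+ tlr4f/f-lysM-cre as its heading. The design asks how LPS acts in each genotype and how the genotypes differ in each state. Whether the 3 libraries of a group came from separate mice or cultures is not given in the labels, so the p-values measure the spread between these libraries, which may be technical. Libraries held 33577087 to 56445268 counts (median 45330681), summed over these transcripts.

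The headings of groups B and C went against the marker genes of the design, and both readings are given throughout. Levels are in CPM, counts scaled to a common library size. Tlr4, the deleted gene, lay at 76.7 to 147 CPM in group A and 95.1 to 117 CPM in group B, but at 24.3 to 31.1 CPM in group C and 24.6 to 27.5 CPM in group D. Lyz2, the lysozyme gene whose locus carries the Cre, showed the same split, with 5950 to 23264 CPM in groups A and B and 10.4 to 75.6 CPM in groups C and D. Il1b, a cytokine gene that LPS induces, was at 1640 to 8220 CPM in group B and 2498 to 2687 CPM in group D, against 0.0748 to 6.93 CPM in groups A and C. If the headings of groups B and C are exchanged, Tlr4 and Lyz2 are low in both groups of the deleted genotype and Il1b is high in both LPS stimulated groups. Groups are therefore called by their letters. By the headings, B against A is the genotype without LPS, D against C the genotype with LPS, C against A the effect of LPS in tlr4f/f BMDMs and D against B the effect of LPS in the deleted genotype. With the headings exchanged, B against A is the effect of LPS in tlr4f/f BMDMs, D against C the effect of LPS in the deleted genotype, C against A the genotype without LPS and D against B the genotype with LPS. Groups A and D keep their meaning either way.

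Other features of the libraries also moved with the groups, and their part in the results below was not tested except where a value is given. All 8 macrophage markers were detected in every group. Their summed level was 13763 to 29499 CPM and 17890 to 21364 CPM in group A and group B, and 4417 to 4682 CPM and 7801 to 8025 CPM in group C and group D. Lyz2 made up much of the sum in groups A and B. The 7 markers other than Lyz2 summed to 6235 to 7196 CPM in group A and 10569 to 13683 CPM in group B. They summed to 4407 to 4668 CPM in group C and 7748 to 7950 CPM in group D. This sum was higher in all 6 libraries of groups B and D than in the other 6, as Cybb was. Single markers did not all follow the sum. By log2 fold change 5 of the 8 markers were higher and 3 lower in group B than in group A. In group D 6 were higher and 2 lower than in group C. Csf1r had a lower mean in group B (1376 CPM) than in group A (2073 CPM). Cd68 was at 582 to 647 CPM in group D against 737 to 818 CPM in group C. The 12 neutrophil markers, of interest because neutrophils also hold this oxidase, summed to 133 to 564 CPM and 115 to 126 CPM in groups B and D against 30.0 to 57.0 CPM and 25.0 to 28.4 CPM in groups A and C. In groups B and D most of this was Csf3r (54.7% to 91.6% of the sum), and in groups A and C its share ran from 8.92% to 86.7%. Ly6g and Retnlg were at or near 0 in all 12 libraries. By log2 fold change all 9 neutrophil markers tested between groups A and B were higher in group B. S100a8 was at 8.91 to 125 CPM in group B against 0.467 to 8.91 CPM in group A. Between groups C and D 3 of the 8 tested were higher in group D and 5 lower. The 5 fibroblast markers reached 655 CPM in replicate 1 of group A and 921 and 1462 CPM in replicates 1 and 3 of group B, and were at most 137 CPM in the other 9 libraries. Lists for B cells, T cells, erythroid, mast and dendritic cells each summed to at most 7.48 CPM in any library. The libraries of groups A and B also varied more, with a median coefficient of variation per gene of 23.0% and 26.3% against 8.16% and 9.03% in groups C and D. In such bulk samples fewer cells of a type and less RNA per cell cannot be told apart.

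The stretches before and around the start sites are shown for the 3 subunits that had a promoter window. They are the RefSeq promoter windows on GRCm38.p6 (mm10), 250 bases before and 50 bases after the start, on the gene's own strand. Capitals mark matches, on either strand, to letters bound by factors known at oxidase promoters. These are GAGGAA, the core of PU.1 sites, the interferon-stimulated response element read by IRF factors (GAAA repeated after any 2 bases), and TTCNNNGAA, the gamma-activated site read by STAT factors. The windows lie at chrX:9469275-9469574 for Cybb, chr5:134229576-134229875 for Ncf1 and chr8:122432891-122433190 for Cyba, all on the minus strand.
Cybb: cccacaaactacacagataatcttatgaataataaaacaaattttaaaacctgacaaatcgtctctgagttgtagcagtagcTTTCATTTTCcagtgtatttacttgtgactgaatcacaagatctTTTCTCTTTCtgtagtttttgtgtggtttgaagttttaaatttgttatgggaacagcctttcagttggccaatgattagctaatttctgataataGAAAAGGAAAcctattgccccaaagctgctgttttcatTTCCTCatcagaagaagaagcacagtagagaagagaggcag
Ncf1: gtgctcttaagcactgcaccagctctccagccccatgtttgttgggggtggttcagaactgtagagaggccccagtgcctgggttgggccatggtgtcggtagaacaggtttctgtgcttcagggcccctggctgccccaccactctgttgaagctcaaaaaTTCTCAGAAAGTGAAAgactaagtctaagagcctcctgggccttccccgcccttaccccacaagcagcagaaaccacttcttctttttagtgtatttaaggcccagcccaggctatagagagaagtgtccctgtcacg
Cyba: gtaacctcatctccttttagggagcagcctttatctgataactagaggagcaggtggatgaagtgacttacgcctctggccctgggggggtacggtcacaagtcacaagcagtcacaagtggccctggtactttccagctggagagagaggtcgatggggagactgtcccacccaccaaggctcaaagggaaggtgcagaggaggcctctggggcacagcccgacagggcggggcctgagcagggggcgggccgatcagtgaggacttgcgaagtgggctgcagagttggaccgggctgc
The Cybb window held 3 matches to the interferon-stimulated response element, starting 168, 124 and 29 bases before the start site, and 1 PU.1 core 9 bases after it. The Ncf1 window held 1 gamma-activated site 88 bases before the start and 1 interferon-stimulated response element 82 bases before it, which overlap. The Cyba window held none of these letters. Of all 32851 promoter windows of this length, 3.44% held the interferon-stimulated response element letters, 8.30% the gamma-activated site letters and 28.3% the PU.1 core. These matches are letters and not tested sites, and whether they bear on the levels below was not tested. Ncf4 and Rac2 had no window in the table used.

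**Figure D1:**
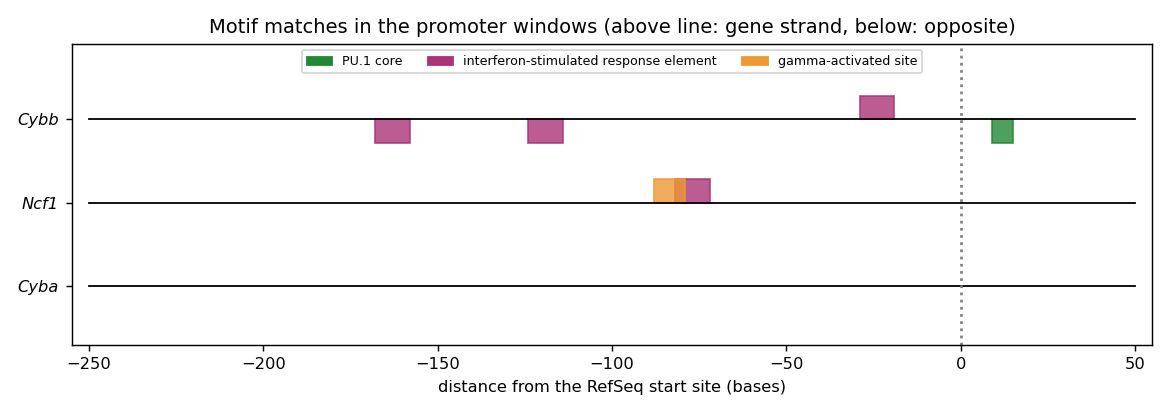
Matches in the promoter windows of Cybb, Ncf1 and Cyba by distance from the RefSeq start site in bases (dotted line: start; above the line: gene strand; below: opposite strand). The Cybb window shows 4 matches, the Ncf1 window 2 that overlap, and the Cyba window none.

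Cybb, the catalytic subunit, was several times higher in groups B and D than in groups A and C, while its membrane partner Cyba differed little. Rac2, Ncf4 and Ncf1 lay in between, with differences near 2-fold. Between groups A and C, and between groups B and D, no subunit passed both thresholds used to call a change, given with the counts below.

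The Cybb gene lies on chromosome X, 9435252 to 9487771, minus strand (GENCODE M21 on GRCm38), a span that holds the RefSeq promoter window above. Its normalized level was 430.0, 886 and 984 CPM in replicates 1, 2 and 3 of group A (767 ± 296, SD, n = 3). In the libraries of group B it was 3470, 3475 and 3482 CPM (3476 ± 6.43, SD, n = 3). It reached 949.5, 1032 and 780 CPM in group C (920 ± 129, SD, n = 3). It stood at 3871, 3993 and 3646 CPM in group D (3837 ± 176, SD, n = 3). All 6 libraries of groups B and D were above all 6 of groups A and C, and replicate 1 of group A was the lowest of the 12. The 2 high groups did not overlap each other and differed by a log2 fold change of 0.15 (SE 0.119, edgeR adjusted p = 0.391), and the 2 low groups overlapped. The share of all genes whose groups do not overlap was not computed, here or for the subunits below. With 3 libraries a group, genes with small differences also did not overlap, such as Rac1 between groups C and D (fold of mean CPM 0.894). Non-overlap by itself therefore says little about a subunit.

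Between groups A and B Cybb rose by a log2 fold change of 2.17 (SE 0.349, edgeR adjusted p = 0.00464). Between groups C and D it rose by 2.05 on the log2 scale (SE 0.0954, edgeR adjusted p = 2.03e-08). By the headings these are the genotype without and with LPS, and exchanged they are LPS stimulation in tlr4f/f BMDMs and in the deleted genotype. The interaction term is the same number under both readings, and for Cybb it was -0.12 (SE 0.358, edgeR adjusted p = 0.872).

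Cyba, the smaller cytochrome chain, lies on chromosome 8, 122424776 to 122432930, minus strand. Its levels were 427.5, 564 and 557 CPM in group A (516 ± 76.7, SD, n = 3). They were 569, 720.3 and 492 CPM in group B (594 ± 116, SD, n = 3). The group C libraries gave 466, 540.7 and 484 CPM (497 ± 38.9, SD, n = 3). The group D libraries gave 578, 627 and 590.2 CPM (598 ± 25.4, SD, n = 3). This last group stood clear of groups A and C, and all other pairs of groups overlapped. Cyba differed between groups C and D by a log2 fold change of 0.26 (SE 0.0638, edgeR adjusted p = 0.00335), short of a fold change of 2. Between groups A and B the difference was 0.19 (SE 0.213, edgeR adjusted p = 0.509).

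Rac2, the GTPase that switches the assembled enzyme on, lies on chromosome 15, 78559167 to 78572783, minus strand. It gave 274, 333 and 308 CPM in group A (305 ± 29.9, SD, n = 3). In group B it gave 753, 777 and 751 CPM (760.3 ± 14.9, SD, n = 3), the highest of the 4 groups. It gave 286, 318 and 292 CPM in group C (299 ± 16.9, SD, n = 3). In group D it gave 626, 619.7 and 544 CPM (596 ± 45.9, SD, n = 3). The 2 low groups overlapped, and no library of one high group reached the other. Rac2 rose between groups A and B by a log2 fold change of 1.31 (SE 0.167, edgeR adjusted p = 0.00216). Between groups C and D it differed by 0.99 (SE 0.0657, edgeR adjusted p = 4.94e-08), just under the fold threshold. Between the 2 high groups the log2 fold change from B to D was -0.34 (SE 0.111, edgeR adjusted p = 0.0622).

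Ncf4, which binds phosphoinositides at the phagosome, lies on the same chromosome 15 from 78244801 to 78262580, plus strand. It was the lowest of the 5, at 90.0, 116 and 113 CPM in group A (106 ± 14.2, SD, n = 3). It was 226, 211 and 241 CPM in group B (226 ± 14.9, SD, n = 3). In group C it was 119.7, 128 and 124 CPM (124 ± 4.13, SD, n = 3). In group D it was 204, 208 and 214 CPM (209 ± 4.64, SD, n = 3). The 6 libraries of groups B and D were again above the other 6, and the 2 high groups overlapped. Ncf4 rose between groups A and B by a log2 fold change of 1.08 (SE 0.162, edgeR adjusted p = 0.00365). Between groups C and D it differed by 0.75 (SE 0.0505, edgeR adjusted p = 5.84e-08), below the fold threshold.

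Ncf1, the organizer whose phosphorylation starts assembly, lies on chromosome 5, 134220053 to 134229625, minus strand. It varied widely in groups A and B, at 467, 354 and 596 CPM in group A (473 ± 121, SD, n = 3). In group B it was 1120, 958 and 513 CPM (864 ± 314, SD, n = 3), so that replicate 3 fell within the range of group A. It was 296, 322 and 323 CPM in group C (313 ± 15.2, SD, n = 3). It was 651.5, 693 and 608 CPM in group D (651 ± 42.8, SD, n = 3). Groups C and D were well apart, and Ncf1 rose from C to D by a log2 fold change of 1.05 (SE 0.0619, edgeR adjusted p = 1.70e-08). Between groups A and B the difference of 0.86 (SE 0.342, edgeR adjusted p = 0.0920) did not pass the threshold after adjustment, and the groups overlapped. Group C was below group A without overlap, by -0.57 (SE 0.192, edgeR adjusted p = 0.143).

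**Figure D2:**
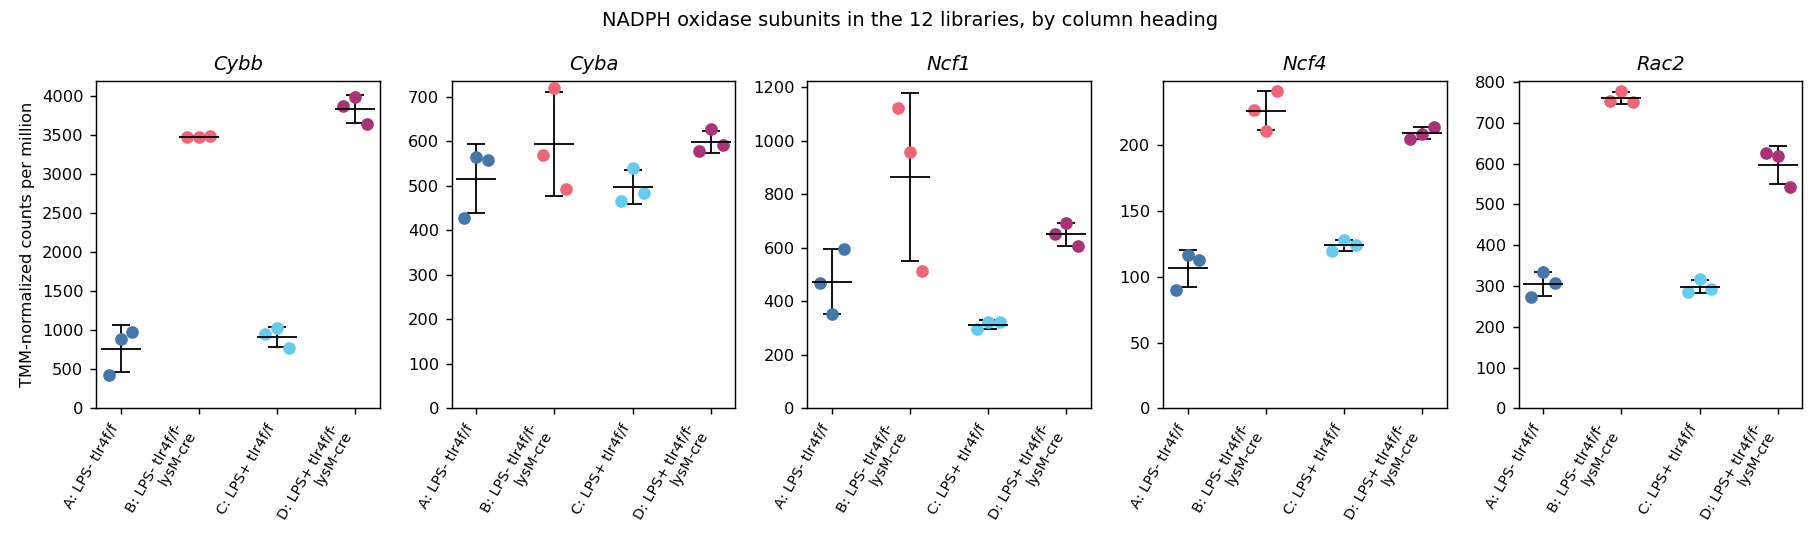
Normalized level of each subunit in CPM (linear axes from 0, a scale per gene) in the 12 libraries by column heading; points are libraries, horizontal bars the mean and whiskers 1 SD (n = 3). Cybb stands at 3470 to 3993 CPM in all 6 libraries of groups B and D and at 430.0 to 1032 CPM in the other 6, whereas Cyba spans 427.5 to 720.3 CPM over all 12.

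Counted over the 5 subunits, a gene was called where its fold change was above 2 and its adjusted p below 0.01. Between groups A and B 3 of the 5 were called, all higher in group B (Cybb, Rac2 and Ncf4), against 17.1% of the 14635 genes tested. At an adjusted p below 0.05 alone the same comparison gave 3 of 5, against 37.3%. Between groups C and D 2 of 5 were called (Cybb and Ncf1), against 21.7% of 14540 genes. At an adjusted p below 0.05 alone all 5 were higher there, but so many genes passed in this comparison (61.4%) that this share says little about the subunits. The median log2 fold change of the 5 was 1.08 between groups A and B and 0.99 between groups C and D, where the median of all genes tested was -0.08 and -0.02. Each of the 6 libraries left out in turn lowered the count between groups A and B: leaving out replicate 2 of group A, or replicate 1 or 2 of group B, left 0 called, leaving out replicate 1 of group A or replicate 3 of group B left 1, and leaving out replicate 3 of group A left 2. In these fits the differences stayed in the same direction and the adjusted p lay near the threshold. Cybb was at a log2 fold change of 1.89 to 2.38 (edgeR adjusted p = 0.00764 to 0.0181), Rac2 at 1.24 to 1.38 (edgeR adjusted p = 0.00674 to 0.0126) and Ncf4 at 0.97 to 1.15 (edgeR adjusted p = 0.0109 to 0.0157). Without the 3 libraries rich in fibroblast markers, which left 2 libraries of group A against 1 of group B, the log2 fold changes were 1.93 for Cybb, 1.31 for Rac2 and 0.91 for Ncf4. With a single library in group B these are given as values without a test.

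The comparison of groups D and A does not turn on the headings. It sets LPS stimulated BMDMs of the deleted genotype against unstimulated BMDMs with intact floxed tlr4. Cybb rose by a log2 fold change of 2.32 (SE 0.321, edgeR adjusted p = 0.00284) and was the 1 subunit called, against 13.4% of 14584 genes. Ncf4 differed by 0.97 (SE 0.117, edgeR adjusted p = 0.00186) and Rac2 by 0.97 (SE 0.120, edgeR adjusted p = 0.00204), each just below a fold change of 2. Ncf1 differed by 0.46 (SE 0.201, edgeR adjusted p = 0.115) and Cyba by 0.21 (SE 0.138, edgeR adjusted p = 0.262). At an adjusted p below 0.05 alone 3 of 5 were higher, against 40.8% of genes. Leaving out any 1 of the 3 group D libraries put the adjusted p of Cybb at 0.0147 to 0.0171 and left 0 called, while leaving out replicate 2 or 3 of group A gave 3 or 2 called.

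No subunit was called across the other pair of comparisons. Between groups C and A 0 of 5 were called, against 0.00% of 14701 genes (0 genes, with 3624 at an unadjusted p below 0.05). At an adjusted p below 0.05 alone 1.27% of genes passed and again 0 of the 5. Cybb differed there by a log2 fold change of 0.29 (SE 0.310, edgeR adjusted p = 0.601) and Ncf4 by 0.24 (SE 0.115, edgeR adjusted p = 0.244). Between groups D and B 0 of 5 were called, against 6.08% of 14234 genes, and 0 passed an adjusted p below 0.05, against 26.7%. By edgeR at an unadjusted p below 0.05, 1 of 5 passed in each of these comparisons and 0 of 5 in the interaction. They were Ncf1 between C and A and Rac2 between D and B, both lower in the group named first. Of all genes tested, 3624 of 14701 passed it between C and A and 5741 of 14234 between D and B. In the interaction 3706 of 15775 genes passed. With so many genes passing, 1 of 5 says little about the subunits. By DESeq2 both comparisons also gave 0 of 5 called, a count that uses the fold threshold too. The adjusted p alone depended on single libraries. With each library left out in turn, Ncf1 between D and B ranged widely (edgeR adjusted p = 0.00915 to 0.635). Rac2 did so as well (edgeR adjusted p = 0.0377 to 0.261), as did Ncf1 between C and A (edgeR adjusted p = 0.0432 to 0.400). In these fits 0 subunits were called in either comparison. The interaction of genotype and LPS called 0 of 5, against 1.04% of 15775 genes at both thresholds together and 6.99% at an adjusted p below 0.05. Its values ran from -0.33 for Ncf4 (SE 0.153, edgeR adjusted p = 0.220) to 0.18 for Ncf1 (SE 0.366, edgeR adjusted p = 0.808). For Rac2 the interaction was -0.32 (SE 0.157, edgeR adjusted p = 0.252), and over the alternative settings its adjusted p ran from below to above 0.05. A p above the threshold does not show that the 2 effects are equal. The pairs of comparisons above share libraries and are not independent of each other.

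**Figure D3:**
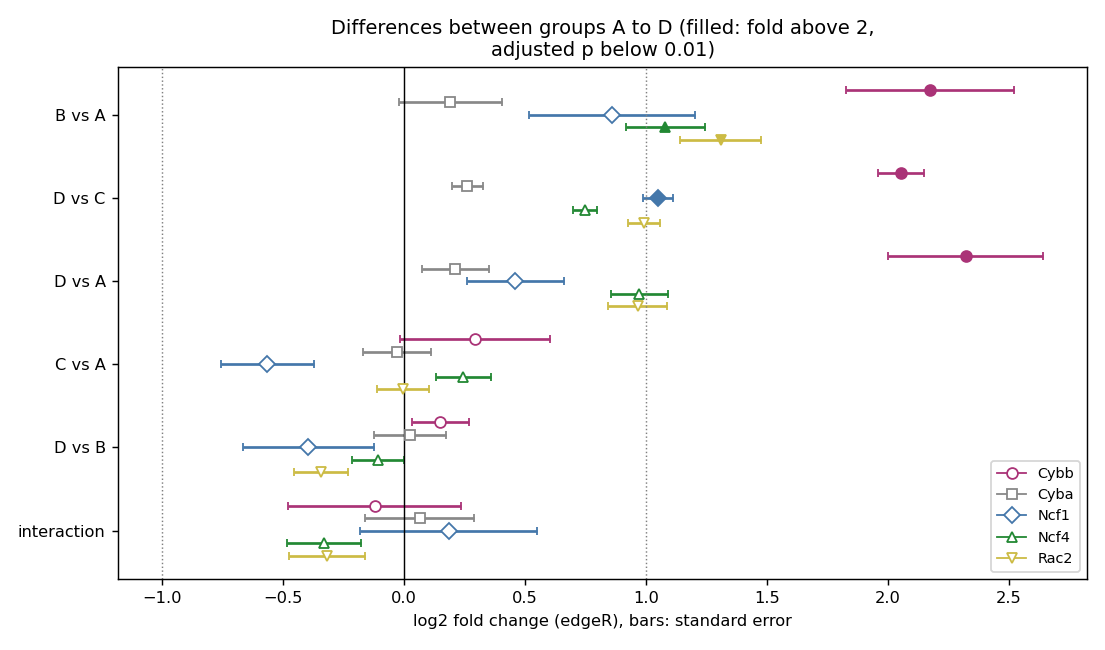
Log2 fold change (edgeR) of each subunit in the 5 comparisons of column groups and the interaction, with standard errors; filled symbols passed a fold change above 2 (dotted lines) with an adjusted p below 0.01. Cybb lies at 2.05 to 2.32 in the first 3 comparisons and all subunits lie within 0.57 of 0 in the last 3.

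The balance of the transcripts of the 2 cytochrome chains differed between the groups. Protein and assembled enzyme were not measured. Per kilobase of transcript, which allows genes to be compared, Cyba had the highest mean level over the 12 libraries (726 CPM per kb, rank 67 of 15775 genes kept), followed by Cybb (474, rank 140), Ncf1 (208, rank 353), Rac2 (161, rank 450) and Ncf4 (114, rank 634). This order is that of the pooled mean and differed between groups, since Cybb was level with Ncf1 in group A (161 ± 62.2 beside 171 ± 43.8 CPM per kb, SD, n = 3) and with Cyba in group D. In groups A and C Cybb was at 161 ± 62.2 and 194 ± 27.1 CPM per kb beside 679.9 ± 101 and 655 ± 51.3 for Cyba (SD, n = 3). In groups B and D it was at 732 ± 1.35 and 808 ± 37.1 beside 782 ± 153 and 788 ± 33.5 (SD, n = 3). The ratio of Cybb to Cyba within a library does not depend on the scaling between libraries. It was 0.161 to 0.325 in the 6 libraries of groups A and C and 0.771 to 1.13 in the 6 of groups B and D, a difference of 1.94 on the log2 scale. The ratios of Rac2 to Cyba (0.138 to 0.160 against 0.230 to 0.381) and of Ncf4 to Cyba (0.106 to 0.134 against 0.153 to 0.255) also did not overlap. The ratio of Ncf1 to Cyba did overlap, at 0.163 to 0.3001 against 0.283 to 0.540. These ratios were chosen after the levels had been seen and are given without a test.

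**Figure D4:**
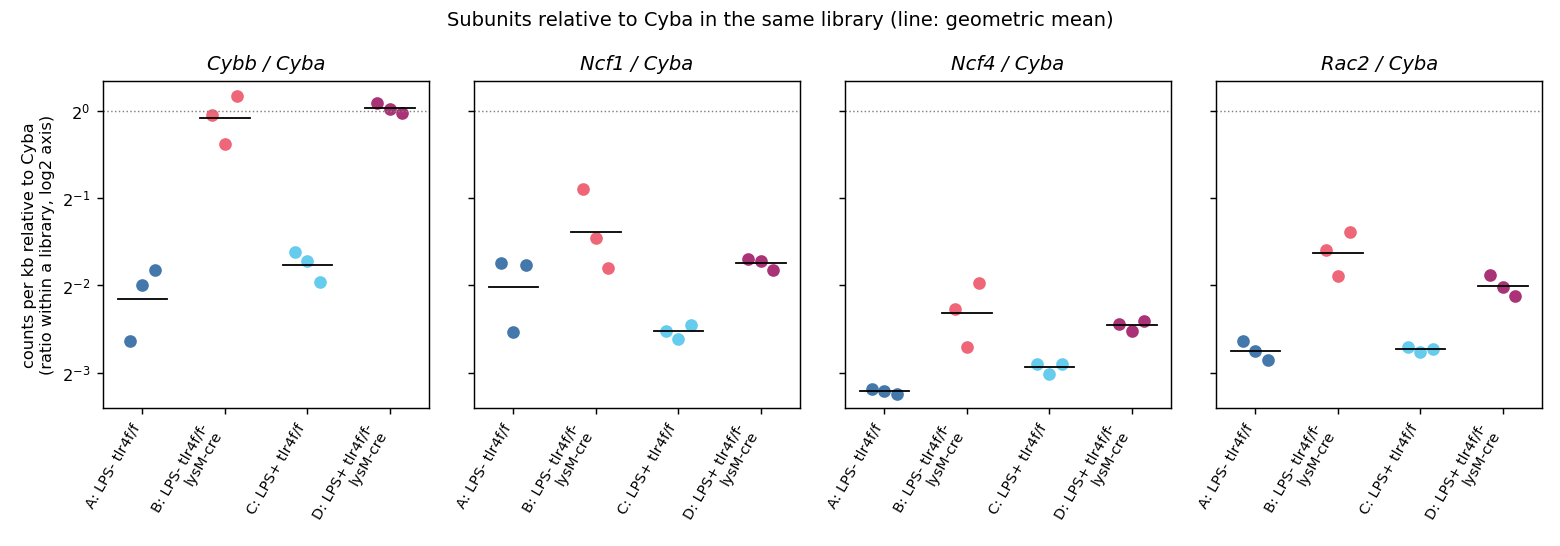
Level per kilobase of Cybb, Ncf1, Ncf4 and Rac2 relative to Cyba in the same library, on a log2 axis by column heading; points are libraries and lines geometric means (n = 3). Cybb runs from 0.771 to 1.13 of Cyba in groups B and D and from 0.161 to 0.325 in groups A and C.

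The table counts reads per transcript, and reads shared by transcripts enter several rows. Rac2 had 1 transcript row (NM_009008.3, 3036 bases). For Cybb the second row held at least 99.8% of the counts of the row used (NM_007807.5), so that the choice does not matter. For Cyba, NM_001301284.1 held 55.4% to 59.3% of the counts of NM_007806.3 across the 12 libraries, and for Ncf1 the non-coding NR_104383.1 held 47.2% to 55.9% of the counts of NM_001286037.1. The 3 other Ncf4 rows held medians of 75.6% to 86.4% of NM_008677.2.

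The genes most like each subunit over the 12 libraries were taken from 5017 genes with a mean log2 CPM of at least 5, by Pearson's r of log2 CPM. The 12 libraries fall into 4 groups, so these values describe shared group differences and carry no test. For Cybb they were Mcoln2 (r = 0.985), Ncoa7 (r = 0.982) and its partner Ncf4 (r = 0.980). Rac2 was most like Stard5 (r = 0.995), Cflar (r = 0.992), an inhibitor of caspase-8, and Irak2 (r = 0.992), a kinase of Toll-like receptor signaling. Ncf4 was most like Vps54 (r = 0.990), Spty2d1 (r = 0.988) and Ptbp3 (r = 0.984). Ncf1 was most like Vps28 (r = 0.969), Zfp263 (r = 0.963) and Atf6b (r = 0.962). Cyba was most like Rnasek (r = 0.926), Acaa1a (r = 0.920) and Nudt9 (r = 0.913). Between the 2 cytochrome chains r was 0.690.

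Of 4 further genes of the phagocyte oxidase, 3 stayed below a fold change of 2 in both comparisons given here. Rac1, the ubiquitous relative of Rac2, differed by a log2 fold change of 0.10 (SE 0.159, edgeR adjusted p = 0.662) between groups A and B and of -0.17 (SE 0.0578, edgeR adjusted p = 0.0238) between groups C and D. Rap1a, a small GTPase that copurifies with the cytochrome, differed in the same comparisons by 0.51 (edgeR adjusted p = 0.143) and 0.43 (edgeR adjusted p = 4.18e-05). Cybc1, the chaperone needed for Cybb protein, differed by 0.72 (edgeR adjusted p = 0.0154) and 0.35 (edgeR adjusted p = 0.000135).

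Hvcn1, the proton channel that balances the charge the oxidase moves, followed another pattern than the subunits. It was at 154 to 155 CPM in the 3 libraries of group B and at 486, 572 and 609 CPM in those of group D. In group A it spread from 54.6 to 154 CPM and in group C from 123 to 166 CPM. Hvcn1 rose between groups C and D by a log2 fold change of 1.96 (SE 0.134, edgeR adjusted p = 1.13e-05) and from group B to group D by 1.85 (SE 0.126, edgeR adjusted p = 0.00096). It was the 1 of these 4 parts called in either, beside 21.7% and 6.08% of all genes tested. Hvcn1 also rose by 2.45 (SE 0.376, edgeR adjusted p = 0.00412) from group A to group D, where 13.4% of all genes were called. Between groups A and B 0 of the 4 were called, against 17.1% of all genes. The interaction for Hvcn1 was 1.36 (SE 0.406, edgeR adjusted p = 0.0713).

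Of 9 other NOX enzymes and partners, 7 had at most 10 counts in every library and were not tested, Nox4 and both Duox genes among them. Nox1, a relative of Cybb best known in colon, was at 3.16 to 7.58 CPM in group A, 7.63 to 35.2 CPM in group B, 6.91 to 10.0 CPM in group C and 25.0 to 36.3 CPM in group D. It rose between groups C and D by a log2 fold change of 1.87 (SE 0.174, edgeR adjusted p = 3.85e-05) and from group A to group D by 2.69 (SE 0.369, edgeR adjusted p = 0.00286). Its mean level stayed at most 31.4 CPM in any group, where Cybb reached 3837 CPM.

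Among 9 kinases and Rac regulators upstream of the oxidase, 1 was called higher and 0 lower between groups A and B, and 2 higher and 0 lower between groups C and D, beside the shares called of all genes tested (17.1% and 21.7%). Prkcd, a protein kinase C that phosphorylates Ncf1, rose by a log2 fold change of 1.53 (SE 0.305, edgeR adjusted p = 0.00990) and 1.37 (SE 0.0514, edgeR adjusted p = 2.71e-10). From group A to group D Prkcd rose by 1.79 (edgeR adjusted p = 0.00137). Prkcb rose by 1.20 (SE 0.106, edgeR adjusted p = 0.00135) from group B to group D. Arhgdia, the gene with the highest mean level of the list, differed by 0.33 (edgeR adjusted p = 0.235) and 0.20 (edgeR adjusted p = 0.00454).

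Of 5 enzymes that make NADPH, 1 was called lower and 0 higher between groups A and B (17.1% of all genes called), and 0 were called between groups C and D (21.7%). By edgeR at an adjusted p below 0.05 alone 2 were lower between groups A and B (37.3% of all genes passed). In the same way 3 were higher and 1 lower between groups C and D (61.4%). Idh1, the cytosolic isocitrate dehydrogenase, was at 164 to 292 CPM in group A and 53.2 to 70.2 CPM in group B, and fell by 1.77 on the log2 scale (SE 0.264, edgeR adjusted p = 0.00357). From group B to group D Idh1 rose by 1.56 (SE 0.130, edgeR adjusted p = 0.00126). Pgd of the pentose phosphate pathway, the highest of the list, differed by 0.17 (edgeR adjusted p = 0.697) and 0.68 (edgeR adjusted p = 1.14e-06).

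Of 8 genes that dispose of superoxide and peroxide, 2 were called higher and 1 lower between groups A and B (17.1% of all genes called), and 3 higher and 1 lower between groups C and D (21.7%). With no fold threshold and an adjusted p below 0.05, 5 were higher and 3 lower between groups C and D, where 61.4% of all genes passed. Sod2, the mitochondrial superoxide dismutase, was at 51.3 to 75.4 CPM in all 6 libraries of groups A and C and at 1227 to 1899 CPM in the other 6. It rose by a log2 fold change of 4.84 (SE 0.259, edgeR adjusted p = 0.000394) between groups A and B, by 4.34 (SE 0.0583, edgeR adjusted p = 1.61e-13) between groups C and D and by 4.35 (SE 0.188, edgeR adjusted p = 0.000148) from group A to group D. Prdx5, a peroxiredoxin, rose by 2.51 and 2.59 in the first 2 of these (edgeR adjusted p = 0.00112 and 4.75e-11), and Gpx1, a glutathione peroxidase, fell by 1.07 on the log2 scale between groups A and B (edgeR adjusted p = 0.00449). Mpo, which neutrophils use to turn peroxide into hypochlorous acid, fell between groups C and D but never exceeded 2.86 CPM. Prdx1, the highest of the list, differed by 0.90 (edgeR adjusted p = 0.151) and 0.70 (edgeR adjusted p = 6.32e-07).

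Of 5 transcription factors known at oxidase promoters, 3 were called higher between groups A and B (17.1% of all genes called) and 2 between groups C and D (21.7%), and 0 were called lower in either. Without the fold threshold 3 were higher and 1 lower between groups C and D at an adjusted p below 0.05, where 61.4% of all genes passed. The lower one was Elf1 with a log2 fold change of -0.30 (edgeR adjusted p = 0.00062), named after its value was seen. Irf1, one of the IRF factors, was at 40.3 to 64.0 CPM in the 6 libraries of groups A and C and at 231 to 494 CPM in the other 6. It rose by a log2 fold change of 2.98 (SE 0.276, edgeR adjusted p = 0.000886) and 2.33 (SE 0.155, edgeR adjusted p = 2.17e-05), and by 2.59 (SE 0.143, edgeR adjusted p = 0.000202) from group A to group D. Spi1, which encodes PU.1 and was the highest of the list, rose by 1.14 (SE 0.181, edgeR adjusted p = 0.00444) between groups A and B and differed by 0.82 (SE 0.0518, edgeR adjusted p = 3.01e-08) between groups C and D. Cebpb rose by 2.77 (edgeR adjusted p = 0.000812) and 1.43 (edgeR adjusted p = 9.30e-08), and fell by 1.27 on the log2 scale from group B to group D (edgeR adjusted p = 0.00205). Binding of these factors was not measured.

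**Figure D5:**
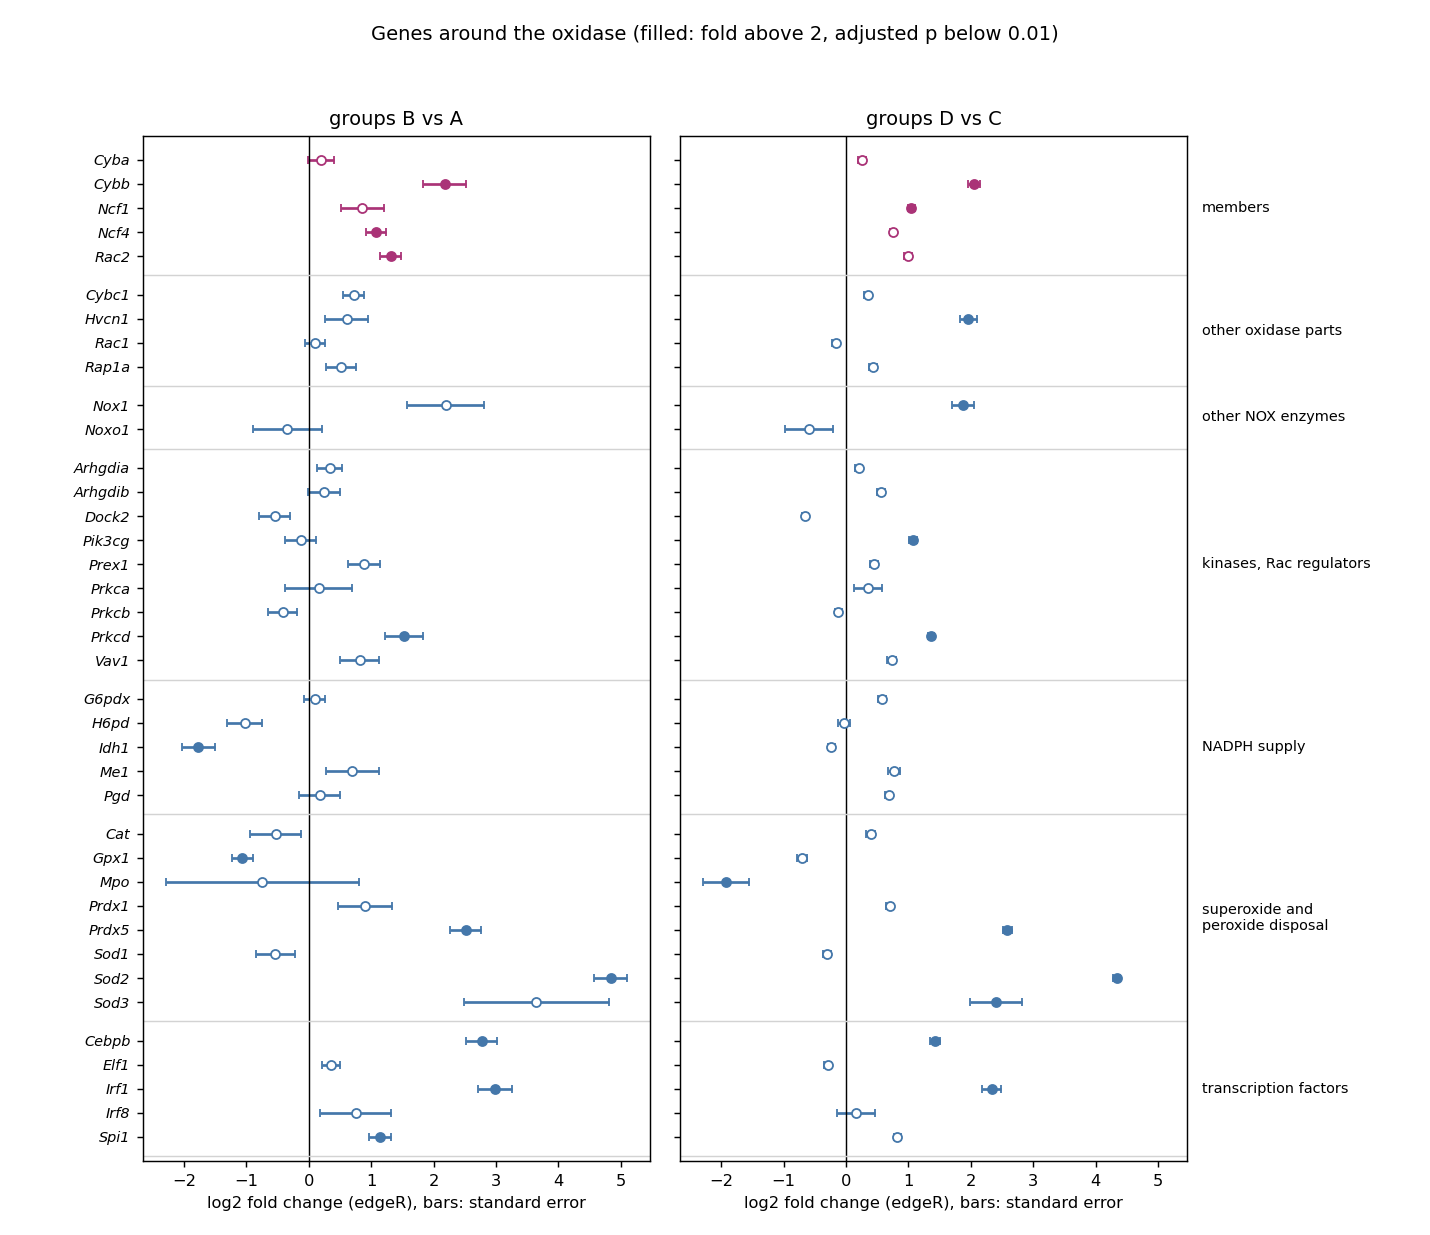
Log2 fold change (edgeR) with standard error of the 5 subunits and of the genes tested in 6 lists around the oxidase, between groups A and B (left) and between groups C and D (right); filled symbols passed a fold change above 2 with an adjusted p below 0.01. Sod2 (4.84 and 4.34) and Irf1 (2.98 and 2.33) lie to the right of Cybb in both panels, and Cyba lies near 0.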

How the data were processed

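PolyA RNA sequencing (2 × 150 bp reads) of 12 BMDM libraries was used. Per the labels and the study's methods the authors trimmed reads with Trimmomatic 0.36, checked them with FastQC, used HISAT2 for alignment (mm10) and HTSeq for counting. The labels name both a polyA protocol and an rRNA removal kit, and whether counting used strand is not given in the sources used here. The authors deposited raw read counts for 115140 transcripts (106335 RefSeq and 8805 Ensembl), not normalized and not pooled, with transcript lengths. Reads shared by transcripts of a gene count in each, so each gene was represented by the transcript with the highest total, and 43131 genes remained.

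From these counts, log2 fold changes, standard errors and Benjamini-Hochberg adjusted p-values over all genes tested were computed with edgeR 4.0.16 (R 4.3.3): TMM factors, filterByExpr, robust quasi-likelihood fits, 6 libraries per pair and all 12 for the interaction. The design was genotype and LPS without a replicate block. Levels are TMM-normalized CPM over the 4 groups, or these per kb of transcript. Called genes changed over 2-fold with adjusted p under 0.01. The scripts were tested on simulated counts with 200 changed genes. Each library counted as 1 replicate, and 0 columns belonged to no sample. Libraries of one group differed by more than sampling noise. The chi-square per gene of 2 libraries was 184.8 to 374.8 in groups A and B and 9.52 to 21.15 in groups C and D. This does not show that the libraries came from separate mice or cultures. Alternatives were DESeq2 1.42.0, limma 3.58.1 (voom with quality weights), RLE factors, 1 fit of all 12 libraries, other filters (none beyond 1 count, or 10 counts per library), the replicate block, sums over transcripts, no fold threshold with an adjusted p below 0.05, exchanged headings and each library left out. The ratio to Cyba and the fit without 3 libraries rich in fibroblast markers were chosen after seeing the data. Promoter windows came from RefSeq (GRCm38.p6), with 3 of 5 subunits matched, and gene positions from GENCODE M21. In the lists 1 symbol was matched through its RefSeq accession (Cybc1). Named genes were the 5 subunits, all other oxidase parts listed (1 gene is not reported here), and in each further list the gene with the highest mean CPM and the called gene with the largest change in each pair of groups. The members, lists and exchanged headings were chosen with earlier results of these data known.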

Additional observations from a re-analysis of the deposited data

How the results depend on the processing

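Differences are named here by the groups as headed. With the headings of groups B and C exchanged, the number of subunits called became 3 for C against A, 2 for D against B, 0 for B against A and 0 for D against C, and stayed at 1 for D against A and 0 for the interaction. Log2 fold changes turned direction for C against A to 0.19 (Cyba), 0.86 (Ncf1) and 1.31 (Rac2), for D against B to 1.05 (Ncf1), 0.75 (Ncf4) and 0.99 (Rac2), for B against A to -0.028 (Cyba), -0.57 (Ncf1) and -0.0051 (Rac2), and for D against C to -0.40 (Ncf1), -0.11 (Ncf4) and -0.34 (Rac2), by the construction of the exchange. At an adjusted p below 0.05 with no fold threshold 5 were called between C and D and 3 between D and A. With all 12 libraries in 1 fit 1 was called between C and D, since Ncf1 had an edgeR adjusted p of 0.0103. DESeq2, voom and RLE factors gave 3 there, since Rac2 was at 1.00 to 1.02.

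Leaving out each library in turn gave 0 to 2 called between A and B, 2 to 3 between C and D (3 without replicate 2 of group C or replicate 3 of group D, where Rac2 passed a fold change of 2) and 0 to 3 between D and A. A library left out reversed values near 0: Cyba (-0.14 to 0.043) and Rac2 (-0.067 to 0.066) for C against A, Cyba for D against B (-0.11 to 0.17), and the interactions of Cybb (-0.34 to 0.17), Cyba (-0.066 to 0.22) and Ncf1 (-0.094 to 0.41). Without the 3 libraries rich in fibroblast markers 0 were called between A and B and Cyba turned to -0.27 for D against B, but group B then had 1 library, assumed to vary like the other group, so neither bears on the calls. Rac2 for C against A turned to 0.00096 by DESeq2, 0.0010 by RLE factors, 0.00028 with at least 10 counts in every library and 0.0034 summed over transcripts. By DESeq2 and RLE factors Cyba for D against B turned to -0.020 and its interaction to -0.023. The cause of these shifts was not tested. RLE factors moved levels by -2.01% to 3.99% and sums over transcripts by -70.9% to 2.94%, the latter because the total then counts shared reads several times. By Spearman's rho 1 of the 3 genes most like Ncf1 and 0 of those of the other subunits stayed among the first 3.

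Replicate numbers are shared by the groups, but the labels tie them to no mouse, day or batch. Deviations of same-numbered libraries correlated at -0.038 to 0.472 (median 0.0415), and 5 of 18 pairs were above 0.1, so the numbers were not taken as pairs. However, 9 of 12 libraries correlated best with their own number, a hint of pairing from the data and not from the design. Between groups A and B the correlations were 0.472, 0.340 and 0.0143 for numbers 1, 2 and 3. Libraries of these 2 groups with different numbers gave -0.491 to 0.203. The replicate block left 0 called between D and A (Cybb 2.41, edgeR adjusted p = 0.0119) and changed the count of subunits in no other comparison. At a median of 45330681 counts a library each subunit had at least 4996 counts in every library, whereas 7 of the other NOX genes had too few to be tested.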
